A study of Drosophila melanogaster with 4 samples.

Results

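The H3K27me3-enriched regions of chromosome arm 3L of Drosophila melanogaster are described here. They are all rows with the sequence name 3L in the deposited region lists, and the separate scaffold 3LHet is not counted among them. Replicate 1 had 380 of its 1486 regions on 3L, replicate 2 had 371 of 1459, and a list deposited for the series as a whole, called the series list, had 519 of 2279. The samples are whole embryos of the wild-type strain Oregon-R, 14 to 16 h old, with no treatment: 2 ChIP libraries made with an antibody to trimethylated lysine 27 of histone H3, and 2 Input libraries from the same kind of embryos. All 4 samples share strain, genotype and stage, so the comparisons are between the 3L regions of the ChIP replicates, between 3L and the other arms, and between the series list and the replicates. Each list gives only the regions that passed the authors' threshold, each with its start, its end and a score. A whole embryo mixes many cell types, and a region called in it can be marked in a part of the cells only. The read depth behind the lists is unknown, and where reads can be placed on 3L was not examined, so an uncalled stretch is not shown to lack the mark.

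H3K27me3 is written by Polycomb repressive complex 2, whose catalytic subunit in flies is Enhancer of zeste, and it is bound by the chromodomain protein Polycomb of repressive complex 1. In flies the complexes are recruited at Polycomb response elements, from which the mark extends over broad domains that often hold neighbouring developmental regulators. In the embryo such domains keep genes for transcription factors silent in cells where they are not used. Genes of 3L for transcription factors include trh, which specifies the tracheae, vvl, a POU factor, and the T-box genes Doc1, Doc2 and Doc3. Others are the Pax genes toe and eyg, the Iroquois homeobox genes ara, caup and mirr, and the Sox genes Sox21b and D. The nuclear receptor-like genes knrl and kni and the forkhead gene croc are of this kind too. The arm also holds the cell death genes hid, grim, rpr and skl, which do not encode transcription factors. The Release 6 gene table at hand lists them along 3L in the order trh, vvl, Doc3, Doc2, Doc1, toe, eyg, ara, caup, mirr, Sox21b, D, hid, grim, rpr, skl, knrl, kni, croc. The region lists are in Release 5 and carry no gene names, so no region was assigned a gene and the regions below are given by position alone.

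On 3L the called regions covered 3.18 Mb in replicate 1 and 3.36 Mb in replicate 2 of the 24.5 Mb arm. Most regions were small and most of the called sequence was not. The median width was 2596.5 bp in replicate 1 and 3116 bp in replicate 2. The middle 50% of regions lay between 1.67 and 6.66 kb in replicate 1 and between 1.77 and 7.09 kb in replicate 2. Regions of at least 10 kb, called broad below, numbered 70 in replicate 1 and 72 in replicate 2, and held 70.9% and 71.7% of the called bases. The 27 widest regions of replicate 1 and the 30 widest of replicate 2 were enough to hold 50% of the bases. Regions under 2 kb numbered 141 and 119 and held 7.01% and 5.67% of the bases. The 10 kb limit did not separate distinct groups, since the narrowest broad region was 10.03 kb and the widest below the limit 9.99 kb in replicate 1, and 10.1 kb and 9.67 kb in replicate 2.

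In both replicates 3L had more regions per Mb than any other major arm, 15.3 ± 0.26 (SD, n = 2), against 13.3 ± 0.77 on 2R, 12.2 ± 0.35 on 3R, 10.5 ± 0.061 on 2L, 9.25 ± 0.52 on 4 and 9.08 ± 0.35 on X. In the series list the order of the leading arms was the other way, with 21.1 regions per Mb on 3L and 22.4 on 2R. The share of the arm that was called was 13.3% ± 0.50 (SD, n = 2) on 3L, against 16.2% ± 0.023 on 4, 13.5% ± 0.38 on 2L, 12.8% ± 0.24 on 3R, 10.2% ± 0.24 on X and 10.1% ± 0.15 on 2R. The arms of a replicate share its library, so 3L was also compared within each. It lay below 2L by 0.29 percentage points in replicate 1 and 0.12 in replicate 2, and above 3R by 0.33 and 0.69 points. In the series list 3L was above both, with 16.5% called against 15.6% on 2L and 15.2% on 3R. Less of the called sequence of 3L lay in broad regions, 71.3% ± 0.55 (SD, n = 2), than on 2L (82.4% ± 0.14), 3R (78.8% ± 0.14), X (79.9% ± 1.2) and 4 (96.5% ± 0.89). On 2R the share was 69.1% ± 2.3, with 3L higher by 3.41 percentage points in replicate 1 and 0.89 in replicate 2. In the series list the share was 71.6% on 3L, and the difference from X was small, with 72.0% there. The share depends on where regions are cut. With 3L regions less than 1 kb apart merged, it was 82.1% over the replicates, and the comparison with other arms was not run on merged regions. Regions of at least 50 kb held 28.6% ± 0.19 (SD, n = 2) of the called bases of 3L, against 29.9% ± 0.47 on 2R, 42.7% ± 0.51 on 3R, 45.3% ± 0.19 on 2L and 54.4% ± 0.65 on X, while chromosome 4 had no region of that width. In the series list the share was 33.0% on 3L, above that on 2R by 7.93 percentage points. With 2 values per arm an exact two-sided permutation test cannot go below p = 0.333, or p = 0.5 when the values are paired by replicate, so none of these differences was tested.

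**Figure D1:**
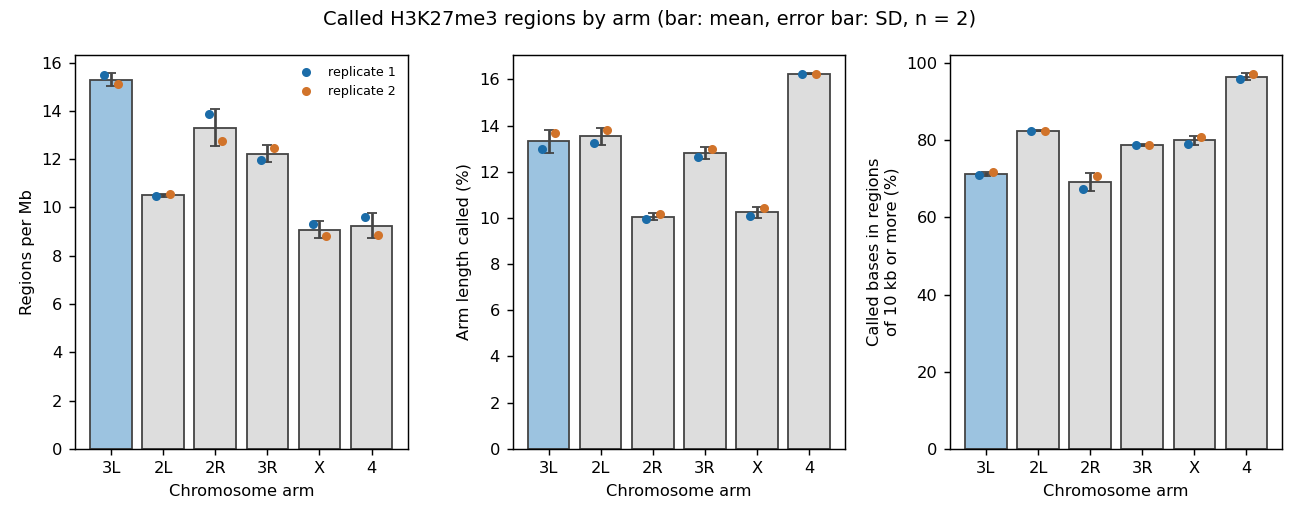
Regions per Mb (left), share of the arm called in percent (middle) and share of called bases in regions of 10 kb or more in percent (right) for 3L and the 5 other major arms. Bars are means of 2 replicates, error bars the SD, points the replicates; 3L has the tallest bar for regions per Mb (15.3) and a lower bar for broad regions (71.3%) than 2L, 3R, X and 4.

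Called sequence was bunched along the arm. Among the 24 full windows of 1 Mb, the median share called was 12.1%, and 7 windows exceeded 20% in both replicates. These 7 held 56.1% of the called 3L bases in replicate 1 and 55.6% in replicate 2. The densest ran from 12 to 13 Mb, with 30.7% ± 0.031 (SD, n = 2), and from 6 to 7 Mb, with 30.4% ± 1.4 (SD, n = 2). They were built in different ways. The window from 12 to 13 Mb held the starts of 10 regions in replicate 1 and 9 in replicate 2, of which 4 were broad in each. That from 6 to 7 Mb held 40 and 37, of which 10 and 8 were broad, and the widest region was 47.1 kb in replicate 1 and 47.4 kb in replicate 2. The window from 15 to 16 Mb, at 28.2% ± 1.5 (SD, n = 2), held 44 and 38 starts with 5 and 7 broad regions. The window from 18 to 19 Mb, at 26.0% ± 0.57 (SD, n = 2), owed most of its share to the longest region of the arm. The other 3 of the 7 lay from 10 to 11 Mb (25.2% ± 1.4), from 14 to 15 Mb (21.9% ± 0.65) and from 1 to 2 Mb (20.4% ± 0.21; SD, n = 2 each). The replicates differed in a window by at most 2.74 percentage points, and replicate 2 was higher in 16 of the 24 windows.

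Long uncalled stretches lay at the centromere-side end and within the arm. Beyond position 22719742 neither replicate had a region in the 1.82 Mb up to the arm's centromere-side end, and the series list had 3 regions there, none wider than 1294 bp. This was the longest uncalled stretch at that side among the 6 major arms in both replicates, ahead of 1567 kb and 1566 kb on 2R and 977 kb and 975 kb on 2L. Counted only up to the last called base of any list, 22852376, the share of 3L called was 13.9% in replicate 1 and 14.7% in replicate 2. At the other end, the first region of both replicates began 366 kb from the tip. Within the arm, the longest stretch uncalled in both replicates took up 943 kb between 2477675 and 3420598. It was followed by 857 kb between 19679126 and 20535772, 678 kb between 9540227 and 10218588, and 536 kb between 17447096 and 17983326. The series list had 4, 2, 1 and 0 regions contained in them, and called at most 0.622% of any of these stretches. On the scaffold 3LHet, 2.56 Mb long, each replicate had 2 regions, 1 of them broad, with a width of 18.5 kb and a score of 1.34 in replicate 1 and of 17.2 kb and 1.57 in replicate 2.

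The 12 longest stretches called in both replicates summed to 1.05 Mb, 35.1% of the 2998506 bases of 3L that both replicates called. Each lay within 1 region of each replicate and 1 of the series list. The first, from 18244516 to 18449376, was 204.9 kb in replicate 1 (score 1.34), 208.2 kb in replicate 2 (1.48) and 212.6 kb in the series list (1.39). Long as it was, it ranked only 37 by score among the 3L regions of replicate 1 and 31 in replicate 2. Its tipward end was ragged, with the next region only 0.56 kb and 0.566 kb away, while on the other side no region followed for 393 kb in replicate 1 and 392 kb in replicate 2.

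The second stretch, from 12565573 to 12725962, measured 160.4 kb in replicate 1, 160.7 kb in replicate 2 and 160.6 kb in the series list, with scores of 2.60, 2.55 and 2.57. By score it ranked 3 in replicate 1 and 5 in replicate 2. A lower-scoring neighbour, 30.8 kb wide with a score of 0.997 in replicate 1 and 30.2 kb wide with 1.06 in replicate 2, ended 495 bp and 751 bp before it, and the other side was uncalled for 319 kb and 320.3 kb.

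The other 10 stretches lay in regions of 47.1 to 105.6 kb in replicate 1, with scores from 1.05 to 2.30. That from 20597819 to 20703402 spanned 105.6 and 108.5 kb with scores of 1.65 and 1.68. That from 14079910 to 14183203 spanned 103.3 and 103.4 kb with the higher scores of 2.18 and 2.28. Between 10218629 and 10313897 the regions were 95.8 and 95.3 kb wide and scored 1.58 and 1.65. The series list extended this region to 126.9 kb. The lowest scores of the 12 went with a stretch that was wider than 6 of them. From 15722157 to 15797484 both were 75.4 and 75.3 kb wide but scored only 1.05 and 1.08, ranking 46 in each replicate. Those from 12410584 to 12464892 (scores 2.30 and 2.31) and from 3841120 to 3894618 (2.26 and 2.24) were isolated blocks of 54.4 and 54.3 kb and of 53.5 and 53.8 kb. The nearest other region lay 69.4 and 69.7 kb from the first of these, and 85.6 and 86.5 kb from the second. The stretch from 10974840 to 11028436 was 53.6 kb wide in both replicates with scores of 1.65 and 1.67, and the series list joined it to its neighbours into 100.3 kb, with a score of 1.29 in that list. The last 3 ran from 12279268 to 12328999, from 3616702 to 3665472 and from 6887414 to 6934522, with widths from 47.1 to 51.7 kb and scores from 1.38 to 1.62.

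**Figure D2:**
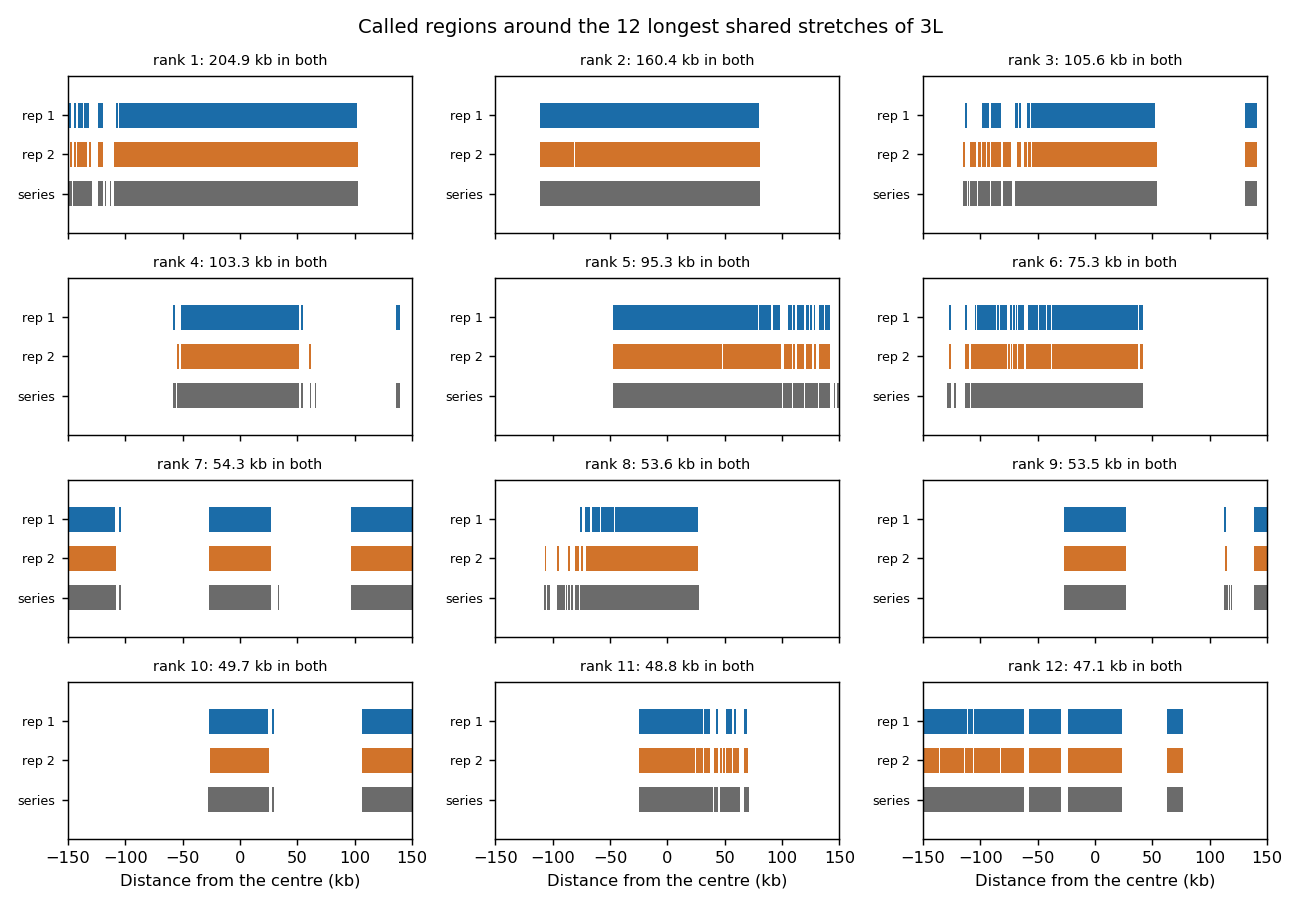
Called regions in replicate 1, replicate 2 and the series list within 150 kb of the centre of each of the 12 longest stretches of 3L called in both replicates, by distance from the centre in kb. The bars of the lists end at nearly the same places for the 160.4 kb (rank 2), 54.3 kb (rank 7) and 53.5 kb (rank 9) stretches, while the 204.9 kb (rank 1) and 105.6 kb (rank 3) stretches have fragments on one side.

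The score rose with width across the 3L regions of the replicates, with a Spearman coefficient of 0.83 in replicate 1 and 0.85 in replicate 2. In the series list it was 0.64, and the highest score of that list on 3L, 2.91, belonged to a region of 1057 bp. Regions of one list share a library and a caller, and the coefficient describes the list only. Scores in replicate 1 ran from 0.301 to 2.82 with a median of 0.593, and in replicate 2 from 0.273 to 2.77 with a median of 0.578. Broad regions had medians of 1.35 in both replicates, against 0.559 and 0.546 for the others. No broad region scored below the median of all 3L regions in its replicate. All 15 regions of replicate 1 and all 16 of replicate 2 with a score of 2 or more were broad. Among those under 10 kb, the highest score was 1.14 in replicate 1, for 6.16 kb from 8531382 to 8537539, which scored 0.972 in replicate 2. In replicate 2 it was 1.37, for 5.08 kb from 16482377 to 16487460. In replicate 1 that place lay in a broad region of 10.4 kb with a score of 1.25.

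**Figure D3:**
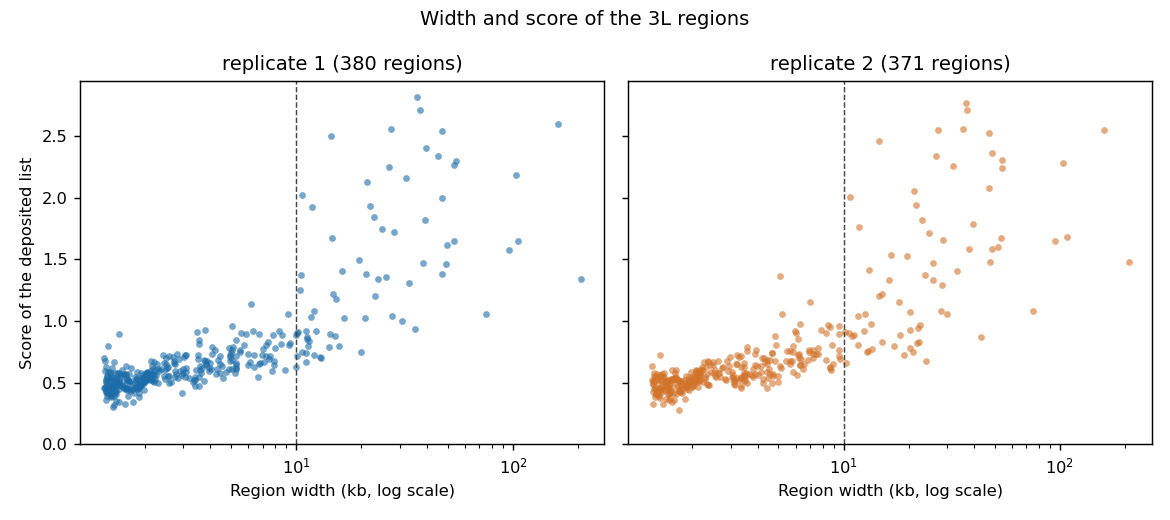
Score from the deposited list (vertical axis, authors' scale) against region width in kb (horizontal log axis) for the 380 regions of 3L in replicate 1 (left) and the 371 in replicate 2 (right). Each point is a region and the dashed line marks 10 kb; every point above a score of 2 lies to the right of the line.

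The same 8 regions had the highest scores on 3L in both replicates. The highest lay between 21441246 and 21477399 in replicate 1 and between 21440411 and 21477401 in replicate 2, and was 36.2 and 37.0 kb wide with scores of 2.82 and 2.77. Next was the region nearest the tip, between 366411 and 403752 in replicate 1 (37.3 kb, score 2.72) and between 366458 and 403766 in replicate 2 (37.3 kb, 2.71). The others were the 160.4 kb region described above and 5 regions between 14.5 and 48.7 kb. From 8993283 to 9040349 in replicate 1 and 8993257 to 9040352 in replicate 2, both widths were 47.1 kb and the scores 2.54 and 2.52. From 21570272 to 21597703 in replicate 1 the region was 27.4 kb wide and scored 2.56, with 27.5 kb and 2.55 in replicate 2. The most compact of the 8 lay between 6973731 and 6988203 in replicate 1 (14.5 kb, 2.50) and between 6973585 and 6988187 in replicate 2 (14.6 kb, 2.46). From 19639303 to 19678991 replicate 1 had 1 region of 39.7 kb with a score of 2.40, which in replicate 2 was cut into 35.6 kb with a score of 2.56 and 5.81 kb with a score of 0.588. From 14556051 the region was 44.9 kb wide in replicate 1 (2.34) and 48.7 kb in replicate 2 (2.37). Over the whole genome these leading regions of 3L held ranks 16 to 65 by score in replicate 1 and 19 to 60 in replicate 2, so regions on other arms had the higher scores.

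Several broad regions were cut differently in the replicates, low-scoring ones among them. The 5 lowest-scoring broad regions of replicate 1 were 10.1 to 13.0 kb wide with scores from 0.669 to 0.720, and those of replicate 2 were 10.3 to 24.0 kb wide with scores from 0.659 to 0.750. On 3L, 9 of 70 broad regions of replicate 1 (12.9%) met 2 or more regions of replicate 2, where all sequences gave 13%. In the other direction 27 of 72 (37.5%) met 2 or more regions of replicate 1, where all sequences gave 31.8%. Replicate 2 had a 24.0 kb region from 10940418 to 10964413 (score 0.676) where replicate 1 had 4 regions of 2.60 to 15.7 kb. It also had a 43.1 kb region from 13046516 to 13089623 (0.866) where replicate 1 had 3 of 10.7 to 19.9 kb with scores from 0.704 to 0.751. The reverse was seen from 22143040 to 22153106, a region of 10.1 kb and score 0.715 in replicate 1 that met 3 regions of 2.06 to 3.20 kb in replicate 2.

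Regions of 3L lay closer to their neighbours than those of the other major arms pooled. No single arm, such as 2R, was set beside 3L for spacing or chains. The median gap between neighbouring 3L regions was 2.81 kb in replicate 1 and 2.56 kb in replicate 2, against 4.62 and 4.00 kb on the other major arms. Of the gaps, 287 of 379 (75.7%) in replicate 1 and 279 of 370 (75.4%) in replicate 2 were under 20 kb, against 66.5% and 67.1% on the other arms. Joining regions less than 20 kb apart gave 93 chains in replicate 1 and 92 in replicate 2, with 4.09 and 4.03 regions per chain, against 2.96 and 3.01 on the other arms. In the series list these values were 4.02 on 3L and 3.30 on the other arms. Chains of a single region made up 40.9% and 43.5% of those on 3L, against 42.4% and 42.1% on the other arms, so their share was nearly the same. With the other arms pooled, how far regions per chain vary from arm to arm is not shown. With 2 values in each group, the difference between 3L and the other arms was not tested.

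The chain with the most regions ran from 15157518 to 15349186 in replicate 1. It held 25 regions of 1.42 to 12.1 kb with scores from 0.379 to 0.916, and 52.4% of its 191.7 kb was called. Replicate 2 had 24 regions there, which called 57.1%, with the widest at 21.1 kb. Of the 25 regions of replicate 1, 21 overlapped one of them, a share near the 84.5% of the whole arm and the 81.3% of all sequences. From 6293613 to 6396997 replicate 1 had 21 regions with a median of 1.87 kb, and replicate 2 had 21 with a median of 2.75 kb, and no score in either exceeded 0.794. The replicates called 60.6% and 67.8% of these 103.4 kb, and of what either called both shared 65.4%, less than the 84.7% of the whole arm. The series list called 93.7% of it in 11 regions of up to 25.4 kb. The chain of replicate 2 there began at 6292804 and ended at 6397003, so its ends lay close to those of replicate 1 while its pieces differed. From 13046516 to 13220892 replicate 2 had 21 regions, 69.7% called, and replicate 1 had 23, 56.5% called. From 15632274 to 15801626 the 18 regions of replicate 1 included the 75.4 kb one described above and called 81.1% of the span. From 22084468 to 22191562 replicate 2 had 15 regions and replicate 1 had 11, with highest scores of 1.41 and 1.37.

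**Figure D4:**
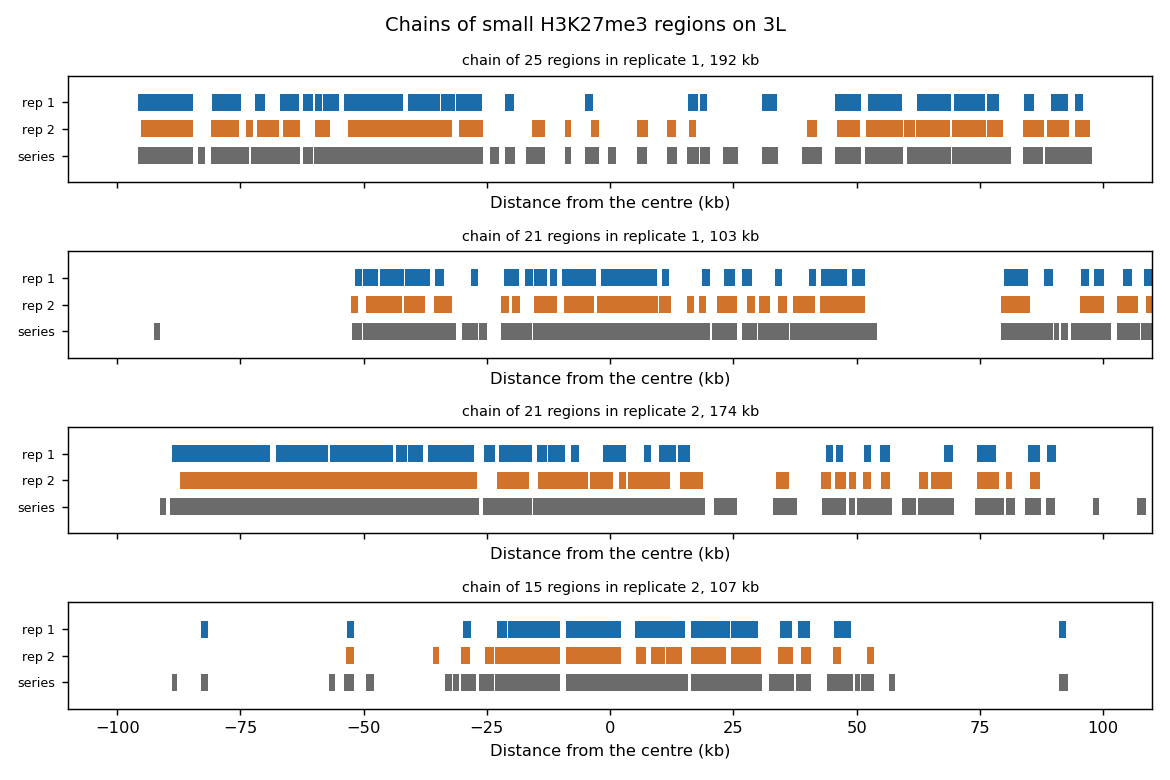
Called regions within 110 kb of the centre of 4 chains of 3L, in replicate 1, replicate 2 and the series list, by distance from the centre in kb. The 2 upper panels are the chains of 25 and 21 regions of replicate 1 and the 2 lower panels those of 21 and 15 regions of replicate 2. Of the bases that either replicate called in the chain, both called 66.7%, 65.4%, 71.6% and 80.5%, from top to bottom. The bars thus differ in what is called as well as in where it is cut, and the series list called more of each chain than either replicate.

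Most 3L regions were found in both replicates, and those without a match were all under 5 kb. At a minimum overlap of 1 bp, 321 of the 380 regions of replicate 1 had a match in replicate 2. This was 84.5%, with a 95% Wilson interval of 80.5 to 87.8, where all sequences together gave 81.3%. Of those of replicate 2, 282 of 371 overlapped replicate 1, 76.0% (71.4 to 80.1), where all sequences gave 75.5%. With an overlap of at least 50% of both regions, the share of replicate 1 was 55.5%. All 121 regions of replicate 1 and all 123 of replicate 2 of 5 kb or more had a match, as did 100% of the regions of this width over all sequences. Between 2 and 5 kb it was 112 of 118 (94.9%) and 106 of 129 (82.2%), where all sequences gave 92.2% and 84.6%. Under 2 kb it was 88 of 141 (62.4%, interval 54.2 to 70.0) in replicate 1 and 53 of 119 (44.5%, interval 35.9 to 53.5) in replicate 2, where all sequences gave 55.7% and 44.4%. The whole lists include 3L itself. The other major arms alone gave 53.7% under 2 kb in replicate 1 and 44.6% in replicate 2. Between 2 and 5 kb they gave 91.2% and 85.3%. The 3L shares are thus near those of the other arms except under 2 kb in replicate 1, where 3L was higher, a difference that was not tested. The replicates had 3.00 Mb in common out of 3.54 Mb called by one or the other, 84.7%, against 87.0% on the other major arms, and arms ranged from 82.6% on 2R to 96.4% on chromosome 4.

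**Figure D5:**
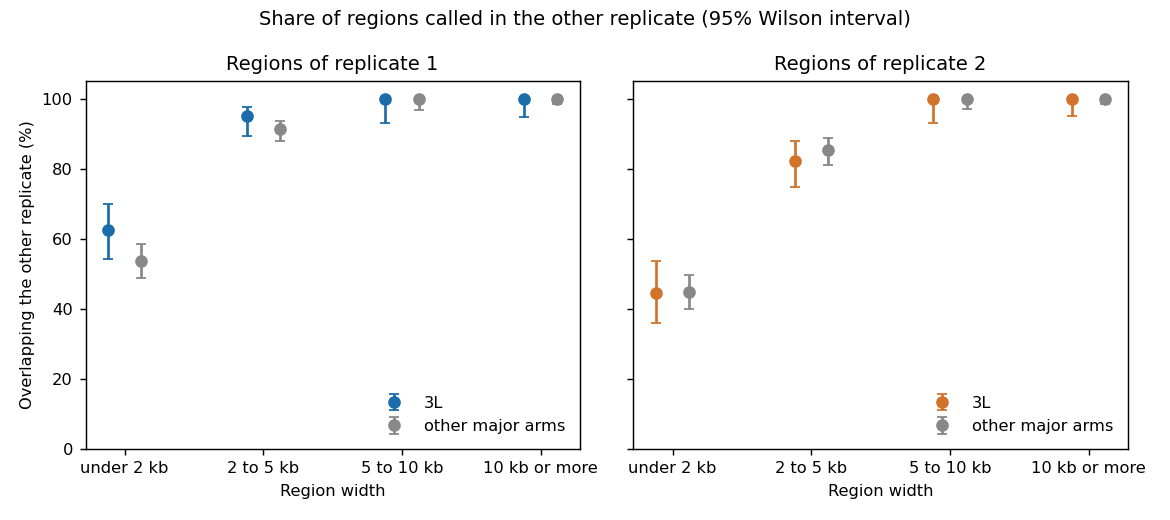
Share of regions that overlap the other replicate, in percent, by region width, for replicate 1 (left) and replicate 2 (right), on 3L (coloured) and on the other major arms (grey). Points are shares and bars 95% Wilson intervals; the share is 100% from 5 kb upwards on 3L and on the other arms, and on 3L it is 62.4% and 44.5% under 2 kb.

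The bases called in one replicate alone were mostly small regions and shifted ends. Replicate 1 alone called 185 kb of 3L, of which 52.2% lay in the 59 regions without a match, 37.5% at the ends of matched regions and 10.3% between regions of replicate 2. Replicate 2 alone called 358 kb, of which 46.5% lay in 89 unmatched regions, 43.1% at ends and 10.4% between regions of replicate 1. Unmatched regions had median scores of 0.499 and 0.503, and matched ones 0.619 and 0.644. The widest unmatched region of replicate 1, 3.09 kb from 14267730 to 14270819, stood 74.1 kb from any region of replicate 2 and was in the series list. The next 4 were 2.04 to 2.99 kb wide and lay 0.498 to 17.9 kb from a region of replicate 2. The 5 widest of replicate 2 were 3.14 to 4.73 kb wide and lay 0.24 to 3.44 kb from a region of replicate 1. All 10 met a region of the series list, as did every 3L region of replicate 1 and all but 1 of replicate 2.

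Regions that matched one to one had closely placed ends where they were broad. Of 171 such pairs, 40 were broad in both replicates. The replicates had 70 and 72 broad regions on 3L, and those that were cut differently are not among the pairs. One left out began at 19639303 in replicate 1, where the widest region it met in replicate 2 began at 19643518. The median distance between their 80 ends was 94.5 bp. It was 200 bp or less for 76.2% of the ends and at most 1492 bp for all. For all 171 pairs the median was 226 bp. Scores correlated across the 40 broad pairs with a Spearman coefficient of 0.99 and across the 25 pairs under 2 kb in both with 0.29, and widths with 1.00 and 0.077. Those 25 pairs span a narrow range of widths and scores, so the low values say little about each region. The largest change in width among all pairs was from 14441948 to 14447029 in replicate 2, 5.08 kb, where replicate 1 had 1.38 kb, with scores of 0.635 and 0.534. The next 4 pairs were 4.23 to 6.27 kb wide in replicate 2 and 1.84 to 3.60 kb in replicate 1. In all 5 the region was wider in replicate 2.

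Some breaks in domains recurred. Neighbouring regions of at least 5 kb with a gap of 1 bp to under 2 kb between them occurred 33 times in each replicate on 3L, with median gaps of 559 bp in replicate 1 and 617 bp in replicate 2. Of these, 14 overlapped between the replicates, 42.4% of the breaks of each, where all sequences gave 41.8% for replicate 1 and 40% for replicate 2. Of the 14, 9 also met such a break in the series list (64.3%, where all sequences gave 65.8%). Another 12 of the 33 in replicate 1 (36.4%) and 7 in replicate 2 (21.2%) fell within sequence that the other replicate called throughout, where all sequences gave 42.9% and 22.1%. The whole lists include 3L itself. On the other major arms, 41.4% of the breaks of replicate 1 and 38.7% of those of replicate 2 overlapped between the replicates. There, 46.6% and 22.6% fell within sequence that the other replicate called throughout. The 3L shares are near these apart from the 36.4% of replicate 1, which is lower, a difference that was not tested. Several recurrent breaks parted regions of unlike score. From 6774905 to 6775446 in replicate 1 (542 bp; 510 bp in replicate 2), scores were 1.03 on the tipward and 1.93 on the other side in replicate 1, and 1.16 and 1.94 in replicate 2. From 21597704 to 21598366 (663 bp; 224 bp in replicate 2) they were 2.56 and 0.889 in replicate 1 and 2.55 and 0.970 in replicate 2. From 22127818 to 22129081 (1264 bp; 1190 bp in replicate 2) they were 1.37 and 0.743, and 1.41 and 0.885. From 5862297 to 5862999 (703 bp; 546 bp in replicate 2) both sides were alike, 1.47 and 1.36 in replicate 1 and 1.59 and 1.47 in replicate 2. These breaks were chosen after their values were seen, and whether reads can be placed in them was not examined.

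The series list called 4.04 Mb of 3L, 16.5% of the arm, and is not independent of the replicates. Of its 519 regions, 196 (37.8%, interval 33.7 to 42.0) overlapped both replicates, where all sequences gave 37%, and these held 86.0% of its 3L bases. Another 52 overlapped replicate 1 alone (10.0%, where all sequences gave 9.92%) and 69 replicate 2 alone (13.3%, where all sequences gave 12.4%). The other 202 overlapped neither (38.9%, where all sequences gave 40.7%). With an overlap of at least 50% of both regions, 23.5% met both replicates. Regions that met both had a median width of 8.02 kb and a median score of 0.568. Those that met neither had a median width of 1.27 kb and a median score of 0.342, and 109 of the 202 (54.0%, where all sequences gave 52.6%) were narrower than any region of the replicates. The narrowest 3L region was 1001 bp in the series list, 1301 bp in replicate 1 and 1302 bp in replicate 2. The lists thus start at different widths, and whether a width limit was set for each was not stated. Counts of unmatched regions are therefore not between like lists. Conversely, no 3L region of replicate 1 and 1 of replicate 2, 1311 bp wide, had no overlap with the series list. Of the 511 kb that the series list called on 3L and neither replicate did, 281 kb were the 202 separate regions and 230.4 kb were added to regions that the replicates also had.

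The series list joined regions that the replicates cut. From 6775446 to 6849451 it had 1 region of 74.0 kb where replicate 1 had 7 and replicate 2 had 4, which called 94.6% and 96.1% of it. From 15651635 to 15692492 it had 1 region of 40.9 kb where replicate 1 had 9 and replicate 2 had 6, which called 75.7% and 91.9%. Its gain over the mean of the replicates was largest in the window from 22 to 23 Mb, 18.4% called in the series list against 10.4% and 9.97% in the replicates. It had 60 regions there where the replicates had 32 and 31. Of the 60, 23 met neither, a share near the 38.9% of the whole arm and the 40.7% of all sequences. Among the 202 regions that met neither replicate, the highest score was 2.91, for 1057 bp from 2447492 to 2448548, the highest of the series list on 3L. It lay 27.5 kb from the nearest region of a replicate. The next 4 scored from 0.525 to 0.870.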

How the data were processed

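Per the labels' protocols, cross-linked chromatin of whole embryos was immunoprecipitated. The labels pair each Input with the region list of the equally numbered ChIP library. Reads were aligned with Bowtie 0.12.7, per the submitters' processing notes. The caller, its threshold, the scale of the score and the making of the series list were not stated. The authors deposited 1 positive score per region. Scores of different lists are set side by side or ranked, and their levels were not compared between lists. Positions are 1-based, per the file headers. The sequence lengths in the headers are those of Release 5, and the gene table used for names belongs to Release 6, so the planned assignment of genes to regions was not run and no sequence was read. In the series list, 1 region on another arm ran past the end of its sequence and was clipped.

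Width is the end minus the start plus 1. Overlap was counted from 1 bp upwards, with 95% Wilson intervals that cover counting error only. Depth is unknown, so no interval that needs it is given. Windows were 1 Mb, and chains joined regions less than 20 kb apart. The named regions of 3L are the 12 longest stretches that both replicates called, the 8 top scores and the 5 lowest-scoring broad regions of each replicate, the 5 widest unmatched regions, the 3 longest chains by number of regions, the 5 series-list regions of highest score that met neither replicate, the 5 longest uncalled stretches and the 5 pairs that differed most in width. The regions under 10 kb with high scores, the most divided broad regions, the joined series-list regions and the breaks were chosen after their values were seen. Members, width limits and rules were chosen with earlier results of these data known. The labels do not say whether the replicates are separate embryo collections. Alternatives were a 50% overlap (of the shorter region, or reciprocal), only regions from the list's median score up, merging of regions less than 1 kb apart, a minimum width of 2 kb, a broad limit of 20 kb and each replicate left out. The differences between 3L and the other arms within each replicate were added after seeing the data; the arms of a replicate come from 1 library, which pairs them. Python 3.11.15 was used with scipy 1.17.1, numpy 2.4.6, matplotlib 3.10.9 and pandas 2.3.3. Tested on simulated data, the overlap code recovered 20 of 20 pairs of lists exactly.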

Additional observations from a re-analysis of the deposited data

How the results depend on the processing

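Asking for an overlap of at least 50% of both regions gave 55.5% of the 3L regions of replicate 1, 56.9% of those of replicate 2 and 23.5% of those of the series list with both replicates. Restricting each list to scores from its median up gave 88.6% for replicate 1, 42.2% for the series list, 87.1% of bases shared, 11.5% of 3L called and 82.9% of called bases in broad regions. Merging regions less than 1 kb apart gave 80.4% for replicate 1, 85.5% of bases shared and 82.1% in broad regions. A minimum width of 2 kb gave 91.6% for replicate 1, 53.1% for the series list, 86.6% of bases shared and 12.5% of 3L called. For replicate 2 the score limit, merging and the minimum width gave 76.5%, 74.8% and 75.4%, against 76.0% in the main setting. Between the replicates, with the score and width limits applied to both lists, a clear rise was thus seen for the regions of replicate 1 only. A region that passes a limit can then lose a match that does not pass. Against the full list of replicate 1, wider regions of replicate 2 did match more often. The share was 44.5% under 2 kb, 82.2% between 2 and 5 kb and 100% from 5 kb up. With broad regions counted from 20 kb, they held 59.0% of called bases. With 1 replicate left out, 47.8% to 51.1% of the 3L regions of the series list met the remaining one, 13.0% to 13.7% of 3L was called and broad regions held 70.9% to 71.7% of it. Merging and the width and score limits change which regions are counted; the cause of the shifts was otherwise not tested. The replicate block, an alternative chosen after seeing the data, takes the mean of the differences within each replicate. For 3L minus the other major arms it gave 4.03 regions per Mb and 1.50 percentage points of sequence called. For called bases in broad regions it gave -7.27 points. With the same replicates on both sides, this mean equals the difference of the means by arithmetic, so it is no check. Merging and the width and score limits were not run on these differences. With 1 replicate left out these were 3.94 to 4.11, 1.33 to 1.67 and -7.32 to -7.22. The Input samples have no region lists of their own here, so ChIP was not set against Input. Genes in regions were not run. The effect of depth could not be examined, since it is unknown.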
